A study of Mus musculus with 7 samples.

Results

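The ABC transporter genes described here were all measured genes whose symbol begins with Abca to Abcg and a digit, 40 genes of the 16462 genes with 1 symbol on the arrays. They were read by 43 probes, 37 genes by 1 probe and 3 genes by 2, and probes of a gene were averaged. They comprised 12 genes of subfamily A, 7 of B, 8 of C, 3 of D, 1 of E, 3 of F and 6 of G. The study profiled liver RNA of 7 mice on a chow diet, 3 labelled C3ar (-/-) KO and 4 labelled C3ar1 WT, described as littermates. C3ar1 encodes the receptor for the complement fragment C3a. Each mouse was read on 2-colour arrays against 1 common pool, which joined the liver RNA of 6 wild types, so a value is a log ratio of a mouse to that pool. Strain, sex, age, the deleted part of C3ar1 and the cells in which it is deleted are not given in the sources used here.

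ABC proteins share an ATP-binding cassette, and most members use ATP to move lipids, bile salts, drugs or conjugated metabolites across a membrane. In hepatocytes, exporters on the canalicular face form bile, and those on the basolateral face return conjugates to blood. Subfamily D works in peroxisomes and lysosomes, part of B in mitochondria, and subfamilies E and F have no membrane part and act on ribosomes. The comparison asked which of these genes differ in liver between mice with and without C3ar1.

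Values are read as log10 of mouse over pool. Neither the base nor the direction is stated in the sources used here. The titles name the pool before the mouse, which makes mouse over pool the likely direction, and the opposite one would flip all signs given here. Wild-type livers are numbered 1 to 4 and knockout livers 2 to 4, as in the titles. In ratios of whole liver, fewer cells of a type and less RNA per cell cannot be told apart. Since every value is relative to the pool, the table gives no level of a gene and no signal over background, so neither the presence of a transporter nor that of hepatocytes could be checked.

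C3ar1 itself, with 1 probe, read 0.0042, 0.0337 and 0.0514 in the knockouts and -0.0296, -0.0318, 0.0225 and 0.0264 in the wild types. These groups overlapped (limma, adjusted p = 0.884), and the knockout mean was the higher one, 0.0298 against -0.00313. The probe may lie outside the deleted part, and whether it reads above background is not known. Why C3ar1 read no lower without the gene was not tested. It therefore checks neither the deletion nor the labels. Column SDs over probes were 0.0466 to 0.0676, apart from knockout liver 2 at 0.0975. None of the 40 ABC genes lies within 20 Mb of C3ar1 in the GRCm38.p6 gene table, and the 1 member on its chromosome, 6, is Abcg2. Knockout liver 4 held the highest value of 10 members and the lowest of another 10, whereas it was highest in 14.4% and lowest in 15.1% of all genes. Wild-type liver 1 was lowest in 11 members, against 17.1% of all genes, and wild-type liver 3 highest in 9, against 11.1%. Knockout liver 2 was highest in 8, against 29.5%. The SD over the 40 members was 0.111 in knockout liver 4, against 0.0675 over all rows, and 0.0532 to 0.0895 over the members in the other livers.

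No ABC transporter gene differed between the genotypes past the threshold. Of the 40 genes, 0 passed an adjusted p of 0.05 (limma, Benjamini-Hochberg over 22212 rows, which are the averaged genes plus each probe without a single symbol), a call made for 0.0045% of all rows. The lowest adjusted p among them was 0.884. At an unadjusted p under 0.05 there were 2 members, Abcb1a and Abcd3, or 5.0%, against 4.55% of all rows, so the share lay near the background. In 0 of 40 members did all knockouts lie on one side of all wild types, against 5.27% of all rows. Mean values were higher in the knockouts for 22 members and lower for 18 (20 higher after median centring), with a median difference of 0.00434, beside 57.2% higher and a median of 0.00558 over all rows. The median size of the difference, whatever its sign, was 0.0246 over the members and 0.0219 over all rows.

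The 95% intervals, each taken gene by gene, bound what these 7 arrays can tell. In 37 of the 40 members the interval lay within a 2-fold change both ways in base 10, beside 97.8% of all rows. In 30 members it lay within 1.5-fold, beside 88.0% of all rows. The 3 members whose interval went past 2-fold were Abcb1a, Abcd2 and Abcd3, each toward lower values in the knockouts. The plot of differences by subfamily shows these 3 intervals past the dotted line.

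**Figure D1:**
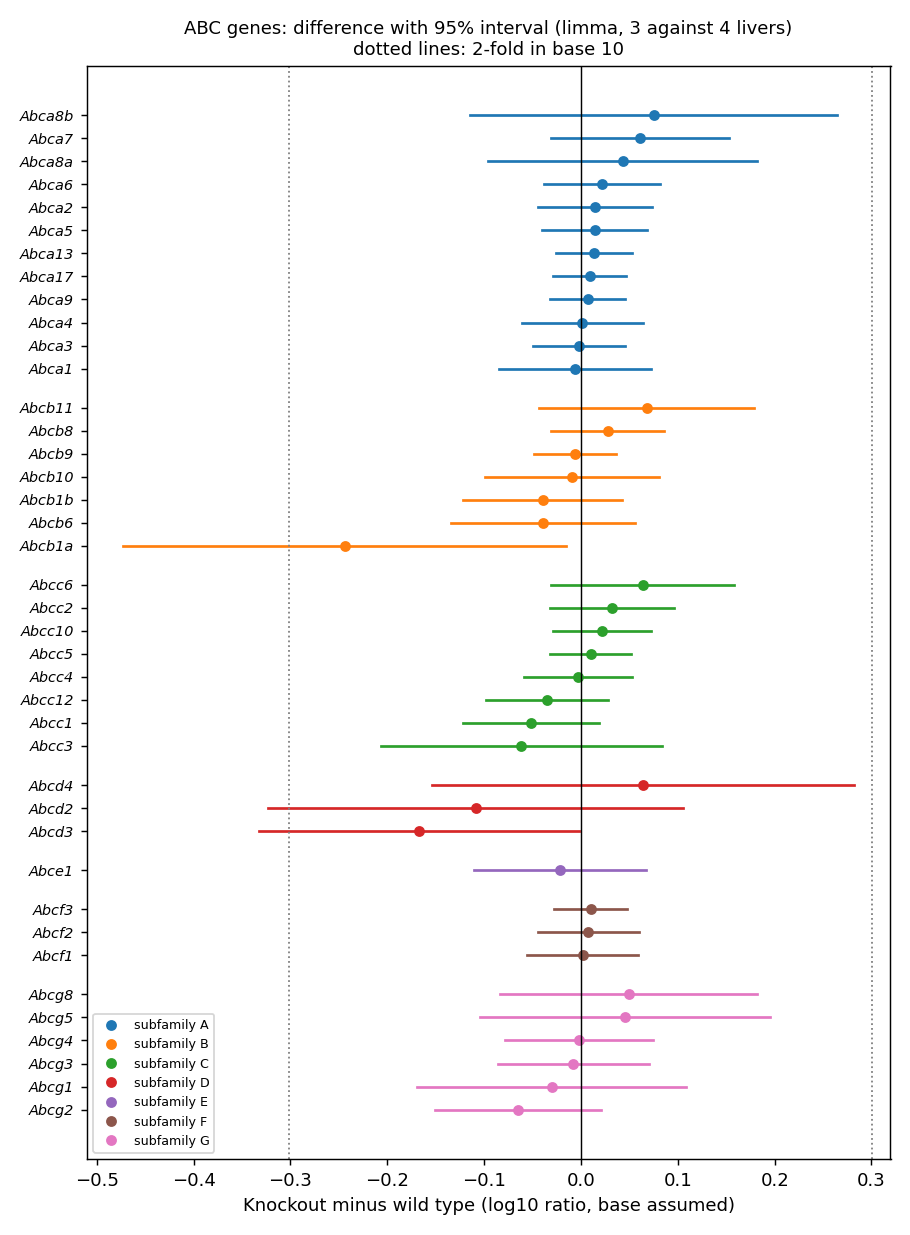
Knockout minus wild-type difference of each of the 40 ABC genes (point) with its 95% interval (line), in log10 ratio units, grouped and coloured by subfamily, from limma on 3 against 4 livers. Dotted lines mark a 2-fold change in base 10. Only the intervals of Abcb1a and Abcd3 leave out 0, and neither gene passed after adjustment.

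Exporters of the canalicular membrane were 7 measured members, 4 higher and 3 lower in the knockouts, and a median difference of 0.0321. Abcb1a, which encodes a P-glycoprotein that expels drugs and other hydrophobic compounds, had the widest difference of the 40 genes. It read 0.0087, -0.1607 and -0.3775 in the knockouts (livers 2, 3 and 4), and -0.0481, 0.0716, 0.0033 and 0.2429 in the wild types (livers 1 to 4). Knockout livers 3 and 4 lay below every wild type, while knockout liver 2 lay among them and wild-type liver 4 above all others. The difference was -0.244 ± 0.0983 (SE), 1.75-fold lower in base 10 with a 95% interval from 1.04-fold to 2.97-fold lower (limma, unadjusted p = 0.0394, adjusted p = 0.884). Without knockout liver 4 it was -0.143, and without knockout liver 2 it was -0.337.

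Abcb1b encodes the second rodent P-glycoprotein and lies close to Abcb1a on chromosome 5. It read -0.0703, -0.0461 and 0.0044 in the knockouts (livers 2, 3 and 4) and 0.0018, -0.0240, 0.0840 and -0.0535 in the wild types (livers 1 to 4). The groups overlapped, and the difference was -0.0394 ± 0.0353 (SE; limma, adjusted p = 0.884), or -0.0121 without wild-type liver 3. Knockout liver 4 was thus the lowest liver for Abcb1a and the second highest for Abcb1b. The DNA just before 1 annotated start of each copy, the first listed, is shown as background, with its part in the readings not tested. It is from RefSeq in GRCm38.p6, 120 bases ending 1 base before the start, on the plus strand, with capitals for any match on either strand to the GC box motif GGGCGG, the box motif CCAAT, the box motif TATAAA or the nuclear receptor motif AGGTCA.
Abcb1a, chr5:8566971-8567090: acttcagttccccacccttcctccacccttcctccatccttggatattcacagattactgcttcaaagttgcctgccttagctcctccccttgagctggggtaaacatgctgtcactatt
Abcb1b, chr5:8798027-8798146: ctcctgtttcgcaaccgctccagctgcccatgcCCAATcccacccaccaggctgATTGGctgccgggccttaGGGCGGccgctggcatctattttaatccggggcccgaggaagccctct
The stretch of Abcb1b held 2 matches to CCAAT and 1 to GGGCGG, and that of Abcb1a held 0 matches to any of the 4 motifs. A global alignment of both stretches matched 69 of its 135 columns. Over all 32851 promoter windows of 300 bases in the table, 35.7% held GGGCGG, 37.4% CCAAT, 13.6% TATAAA and 16.3% AGGTCA. Of the 38 windows of 31 ABC genes that the table held, 19 held GGGCGG, 13 CCAAT, 7 TATAAA and 7 AGGTCA.

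Abcb11 encodes the bile salt export pump. It read 0.0309, 0.0025 and 0.1488 in the knockouts (livers 2, 3 and 4) and -0.0902, 0.0780, -0.0274 and 0.0111 in the wild types (livers 1 to 4). Knockout liver 4 was the highest and wild-type liver 1 the lowest, with the others between and mixed. The difference was 0.0679 ± 0.0478 (SE; limma, adjusted p = 0.884), its interval ran from -0.0433 to 0.179, and with 1 liver left out it went from 0.0238 (without knockout liver 4) to 0.0970 (without knockout liver 3). Abcc2 encodes the canalicular exporter of bilirubin and other conjugates. It read 0.0572, 0.0612 and 0.0148 in the knockouts and -0.0135, -0.0341, 0.0609 and 0.0361 in the wild types. All 3 knockouts were above the pool, as were 2 of 4 wild types, and the difference of 0.0321 ± 0.0276 (SE) did not pass (limma, adjusted p = 0.884) and was 0.0166 without wild-type liver 2.

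Abcg2 encodes an exporter of urate, porphyrins and drugs. It read -0.0865, -0.0140 and -0.1041 in the knockouts and -0.0302, -0.0676, 0.0664 and 0.0191 in the wild types. Knockout livers 2 and 4 lay below all wild types, and knockout liver 3 lay among them. The difference was -0.0651 ± 0.0368 (SE; limma, adjusted p = 0.884), and its interval ran from -0.151 to 0.0204.

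Abcg5 and Abcg8 encode the 2 subunits of 1 dimer, sterolin, which exports cholesterol and plant sterols into bile. Their genes start back to back on chromosome 17, and the 109 bases between the starts in RefSeq (GRCm38.p6, plus strand, read from Abcg5 toward Abcg8) are shown because both genes are read outward from them. For each gene 1 annotated start was used, for Abcg8 the one farthest along the plus strand. Capitals mark the only match to the 4 motifs above, a TATAAA on the minus strand.
Abcg5 to Abcg8, chr17:84683012-84683120: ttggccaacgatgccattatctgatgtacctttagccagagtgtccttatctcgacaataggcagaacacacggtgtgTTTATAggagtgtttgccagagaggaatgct
Abcg5 read 0.0949, 0.0971 and -0.0638 in the knockouts (livers 2, 3 and 4) and -0.1116, -0.0610, 0.0322 and 0.1306 in the wild types (livers 1 to 4). Abcg8 read 0.0557, 0.1360 and -0.0495 in the knockouts and -0.0812, -0.0655, 0.0989 and 0.0405 in the wild types. For both genes the same 3 livers, wild-type livers 1 and 2 and knockout liver 4, lay below the pool and the other 4 lay above it. Neither gene separated the genotypes, with differences of 0.0452 ± 0.0644 and 0.0492 ± 0.0570 (SE; limma, adjusted p = 0.898 and 0.889). With 1 liver left out, that of Abcg5 ran from 0.0088 (without wild-type liver 1) to 0.0984 (without knockout liver 4), and that of Abcg8 from 0.00492 (without knockout liver 3) to 0.0977 (without knockout liver 4).

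Across the 7 livers Pearson's r between Abcg5 and Abcg8 was 0.835 (exact permutation test, two-sided, p = 0.0337) and Spearman's rho was 0.714 (exact permutation test, p = 0.0881). It was 1 of 5 pairs computed, and neither value passed after adjustment over them (exact permutation tests, adjusted p = 0.169 and 0.302). Without the 2 livers farthest from the median of Abcg5, wild-type livers 1 and 4, r was 0.891, and after taking out the genotype means it was 0.823. All points share the same pool.

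For Abcb1a and Abcb1b r was -0.220 and rho -0.50 (exact permutation tests, p = 0.613 and 0.267, adjusted 0.613 and 0.302), and r was 0.189 without wild-type liver 4 and knockout liver 4. For Abcc2 and Abcc3 r was 0.314 and rho 0.50 (exact permutation tests, p = 0.539 and 0.267, adjusted 0.613 and 0.302), and r was 0.720 without wild-type livers 1 and 2. For Abca1 and Abcg1 r was 0.467 and rho 0.464 (exact permutation tests, p = 0.295 and 0.302, adjusted 0.491 and 0.302). For Tap1 and Tap2 r was 0.587 and rho 0.643 (exact permutation tests, p = 0.163 and 0.139, adjusted 0.409 and 0.302). The last 2 rested on the livers left out, since r was then -0.0531 and -0.0891. After taking out the genotype means r was -0.732 for Abcb1a and Abcb1b, 0.559 for Abcc2 and Abcc3, 0.462 for Abca1 and Abcg1 and 0.729 for Tap1 and Tap2, given as a description.

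**Figure D2:**
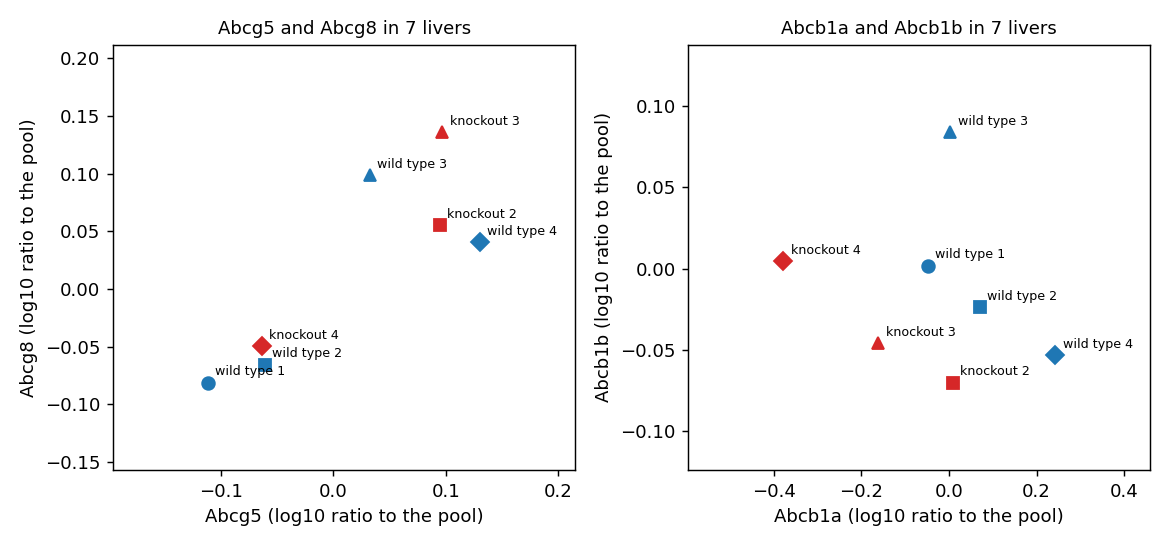
Log10 ratios to the pool in the 7 livers, Abcg8 against Abcg5 (left) and Abcb1b against Abcb1a (right), with wild types in blue and knockouts in red and 1 point per liver. Wild-type livers 1 and 2 and knockout liver 4 are low for both sterolin subunits, while knockout liver 4 is lowest for Abcb1a and not for Abcb1b.

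Basolateral exporters were 5 members of subfamily C, 2 higher and 3 lower in the knockouts, with a median difference of -0.00299. Abcc3, which returns glucuronides and bile acids to blood, read 0.0921, 0.0172 and -0.1895 in the knockouts (livers 2, 3 and 4) and -0.0044, 0.0171, 0.0343 and 0.0928 in the wild types (livers 1 to 4). Knockout liver 4 alone lay far below the rest. The difference of -0.0617 ± 0.0623 (SE; limma, adjusted p = 0.884) turned to 0.0197 without that liver and was -0.121 without knockout liver 2.

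Abcc6 is the liver transporter that drives ATP release and whose loss causes ectopic calcification. It read 0.1422, 0.0629 and 0.0333 in the knockouts and -0.0772, 0.0588, 0.0608 and 0.0212 in the wild types. All 3 knockouts and 3 of 4 wild types were above the pool, and the difference was 0.0636 ± 0.0408 (SE; limma, adjusted p = 0.884). Leaving out knockout liver 2 made it 0.0322, and leaving out wild-type liver 1 made it 0.0325. Abcc1, a broad exporter of glutathione conjugates, read -0.0683, -0.0157 and -0.0665 in the knockouts and 0.0077, 0.0455, -0.0687 and 0.0200 in the wild types. The 3 knockouts were below 3 of the 4 wild types, with a difference of -0.0513 ± 0.0302 (SE; limma, adjusted p = 0.884). Abcc4 and Abcc5, exporters of cyclic nucleotides, differed by -0.00299 and 0.0100. Outside this group Abcc10 differed by 0.0217 and Abcc12 by -0.0350.

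Exporters of cholesterol and phospholipid were 4, and 1 was higher and 3 lower in the knockouts, with a median difference of -0.00420. Abca1, which loads cholesterol and phospholipid onto apolipoprotein A-I, read -0.1285, -0.0253 and 0.0120 in the knockouts and -0.0553, -0.0169, -0.0615 and -0.0297 in the wild types. The knockout values spanned the wild types on both sides, and the difference of -0.00642 ± 0.0337 (SE; limma, adjusted p = 0.971) had a 95% interval from -0.0847 to 0.0719. Abcg1, which passes cholesterol to larger lipoproteins and is prominent in macrophages, read -0.1400, -0.2075 and 0.0407 in the knockouts (livers 2, 3 and 4). Wild-type livers 1 to 4 read -0.0676, -0.1010, -0.1296 and 0.0108. Knockout liver 4 was the highest of the 7 and knockout liver 3 the lowest, with a difference of -0.0304 ± 0.0599 (SE; limma, adjusted p = 0.925) that was -0.102 without knockout liver 4 and 0.0222 without knockout liver 3.

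The liver that was highest for Abcg1 was also the highest for the mean of markers of Kupffer cells and other macrophages. The mean of the 6 measured markers of 7 listed was 0.136 in knockout liver 4, from -0.218 to -0.160 in its 2 group mates and -0.291 to -0.109 in the wild types. In the knockout mean 6 of 6 were higher, beside 57.2% of all rows. For Adgre1, Vsig4 and Cd5l, knockout livers 2 and 3 lay below the wild-type mean, and for Clec4f and Cd68 above it. Marco was split, with knockout liver 2 above and knockout liver 3 below. Cd68 was highest in knockout liver 2 (0.0616) and read 0.0039 in knockout liver 4. The part of these markers in the Abcg1 values was not tested. Abca7, a relative of Abca1 that acts in phagocytes, read 0.1467, -0.0271 and 0.0457 in the knockouts and -0.0407, -0.0069, 0.0280 and -0.0047 in the wild types. Knockout livers 2 and 4 lay above all wild types, and the difference was 0.0612 ± 0.0396 (SE; limma, adjusted p = 0.884). It was 0.0154 without knockout liver 2 and 0.0100 with arrays weighted by their fit, where knockout liver 3 weighed most. Without knockout liver 3 it was 0.102 (limma, unadjusted p = 0.0224, adjusted p = 0.698). Abcg3, a rodent relative of Abcg2, differed by -0.00786. Abcg4, known mainly from brain, differed by -0.00198 on average, with its probes apart at 0.0447 and -0.0487. The probes of Abca17 (0.00557 and 0.0127) and of Abcf3 (0.0102 and 0.00954) had the same sign.

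The other transporters of subfamily A were 10, with 9 higher and 1 lower in the knockouts, 0 called and 0 at an unadjusted p under 0.05 (limma). Together with Abca1 and Abca7, subfamily A counted 10 of 12 higher, with a median difference of 0.0139, beside 57.2% and 0.00558 over all rows. The differences ran from -0.00642 to 0.0750, and each interval included 0. Abca2, Abca5, Abca6, Abca9, Abca13 and Abca17 differed by 0.00707 to 0.0218, and the lung surfactant lipid transporter Abca3 and the retinal Abca4 by -0.00249 and 0.00137. Abca8b had the widest difference of subfamily A and read -0.1482, 0.0630 and 0.1660 in the knockouts (livers 2, 3 and 4) and -0.1678, 0.0836, -0.0371 and -0.0710 in the wild types (livers 1 to 4). Its neighbour Abca8a on chromosome 11 read -0.1144, 0.0185 and 0.0966 in the knockouts and -0.1482, -0.0594, 0.0488 and -0.0126 in the wild types. In both genes wild-type liver 1 was lowest, knockout liver 2 next and knockout liver 4 highest. The differences were 0.0750 ± 0.0814 and 0.0431 ± 0.0596 (SE; limma, adjusted p = 0.886 and 0.894), and both hung on single livers. Without knockout liver 4 they were 0.00547 and -0.0051, and without knockout liver 2 they were 0.163 and 0.10, with an unadjusted p of 0.0468 for Abca8b (limma, adjusted p = 1.0). Abca9, Abca6 and Abca5 lie beside them and spread far less, with an SD between livers of a genotype of 0.0124, 0.0337 and 0.0292, against 0.129 for Abca8b and 0.0932 for Abca8a.

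The 3 genes of subfamily D had a median difference of 0.109 in size, whatever its sign, against 0.0246 over all 40 members. Its proteins form dimers of like or unlike subunits and bring fatty acyl-CoA into peroxisomes, except Abcd4, which acts on lysosomal cobalamin. Abcd3, the major peroxisomal membrane protein of liver, read -0.2508, -0.0720 and -0.2217 in the knockouts (livers 2, 3 and 4) and -0.0089, -0.1409, 0.1491 and -0.0575 in the wild types (livers 1 to 4). All 3 knockouts were below the pool, knockout livers 2 and 4 were below all wild types, and wild-type liver 2 was below knockout liver 3. The difference was -0.167 ± 0.0710 (SE), 1.47-fold lower and the interval reached from 1.00-fold to 2.15-fold lower (limma, unadjusted p = 0.0482, adjusted p = 0.884). Leaving out 1 liver at a time, it ranged from -0.222 to -0.112. Abcd2, which takes very long and polyunsaturated acyl-CoA, read -0.0733, 0.0273 and -0.3719 in the knockouts and 0.0966, -0.0761, -0.0632 and -0.0796 in the wild types. The difference of -0.109 ± 0.0921 (SE; limma, adjusted p = 0.884) turned to 0.00758 without knockout liver 4 and was -0.192 without knockout liver 3. Abcd4 read 0.2066, 0.1877 and -0.1343 in the knockouts and 0.0981, 0.1359, -0.0448 and -0.0995 in the wild types, a difference of 0.0642 ± 0.0936 (SE; limma, adjusted p = 0.900) that was 0.175 without knockout liver 4 and 0.00428 without knockout liver 2. Knockout liver 4 was the lowest liver for both Abcd2 and Abcd4.

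**Figure D3:**
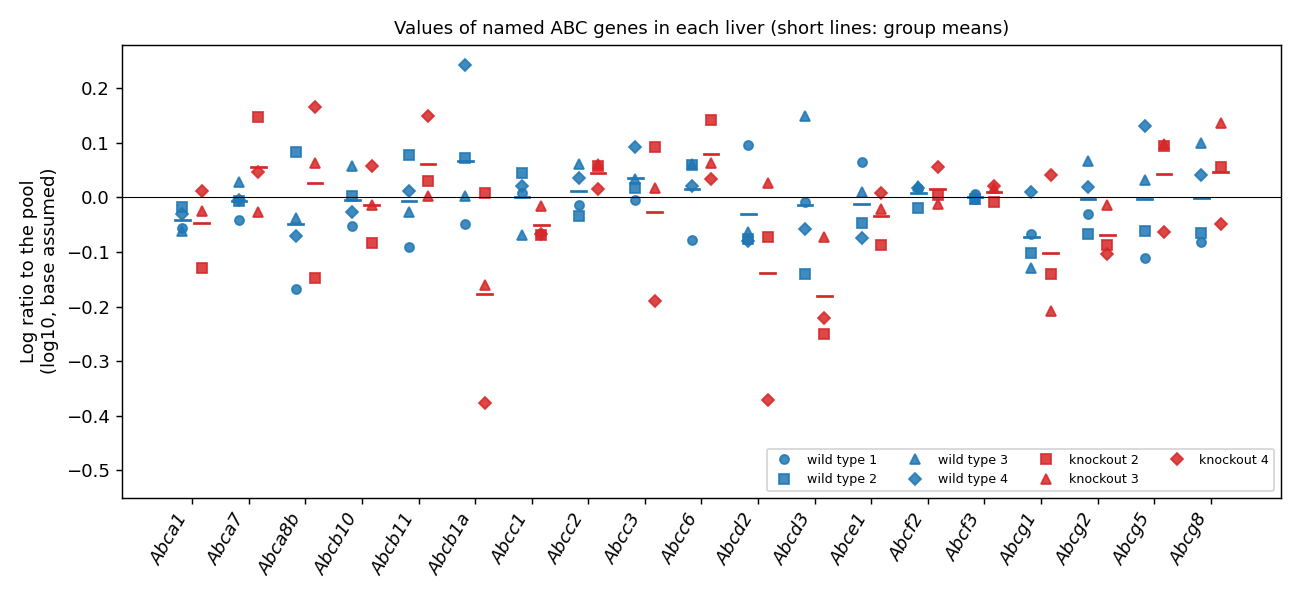
Log10 ratio to the pool of 19 named ABC genes in each liver, with wild types in blue and knockouts in red, 1 symbol shape per title number, and a short line at each group mean. The groups overlap in every gene shown, and knockout liver 4 is the lowest point for Abcb1a, Abcc3 and Abcd2.

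Of the members of subfamily B that work in mitochondria and other organelles, 1 was higher and 3 lower in the knockouts. Abcb10, an inner mitochondrial membrane protein needed for heme synthesis, read -0.0838, -0.0131 and 0.0574 in the knockouts and -0.0517, 0.0034, 0.0579 and -0.0259 in the wild types. The ranges nearly coincided apart from knockout liver 2, and the difference was -0.00909 ± 0.0386 (SE; limma, adjusted p = 0.967). Abcb6, an organelle porphyrin transporter, differed by -0.0395, the mitochondrial Abcb8 by 0.0274 and the lysosomal peptide transporter Abcb9 by -0.00601.

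The 4 ribosome-associated ABC proteins had small differences, from -0.0214 to 0.00987. Abce1, which splits ribosomes after termination, read -0.0871, -0.0210 and 0.0082 in the knockouts and 0.0641, -0.0472, 0.0097 and -0.0743 in the wild types, a difference of -0.0214 ± 0.0382 (SE; limma, adjusted p = 0.919). Abcf3 read -0.0081, 0.0180 and 0.0200 in the knockouts and 0.0066, -0.0038, -0.0024 and 0.0001 in the wild types. Abcf2 read 0.0040, -0.0121 and 0.0563 in the knockouts and 0.0164, -0.0202, 0.0206 and 0.0170 in the wild types. Both overlapped between genotypes, with differences of 0.00987 ± 0.0162 and 0.00762 ± 0.0224 (SE; limma, adjusted p = 0.912 and 0.951), and the interval of Abcf3 ran from -0.0278 to 0.0476. Abcf1, which takes part in translation initiation, differed by 0.00162.

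The subfamilies were set side by side by their medians, with no test. The median difference was 0.0139 in A, -0.00909 in B, 0.00351 in C, -0.109 in D, -0.0214 for the 1 gene of E, 0.00762 in F and -0.00492 in G. Counts of members higher in the knockouts were 10 of 12 in A, 2 of 7 in B, 4 of 8 in C, 1 of 3 in D, 3 of 3 in F and 2 of 6 in G. The medians of C to G turned sign with 1 liver left out. That of C was -0.00667 and that of F -0.00193 without wild-type liver 2, and that of D, which is the value of Abcd2, was 0.00758 without knockout liver 4. The median of E became 0.00397 when wild-type liver 1 was left out and 0.00553 when knockout liver 2 was. For G, leaving out wild-type liver 4 gave 0.00628 and leaving out knockout liver 3 gave 0.00577. Probes not averaged gave 0.0184 for G, but there only the probe of smaller p stood for each gene. For Abcg4 that was the probe at 0.0447, and the one at -0.0487 was dropped. With array weights C was -0.00461 and F -0.00358. Under median centring the medians became 0.00926 in A and -0.00116 in C, and that of all members -0.000325.

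The members differed widely in how much they varied between livers of a genotype. The within-genotype SD had a median of 0.0479 over the 40 genes, against 0.0357 over all rows, and 25 members were above the median of all rows. Among the 10% of rows with the largest SD lay 10 members, namely Abcb1a, Abcd4, Abcd2, Abca8b, Abcd3, Abcg5, Abcc3, Abcg1, Abca8a and Abcg8. All 3 genes of D and 3 of 6 genes of G were among them, and all 6 genes of G and 7 of 7 canalicular exporters were above the median. At the other end Abcf3, Abca17, Abca9 and Abca13 had SDs of 0.0106, 0.0107, 0.0124 and 0.0130. These 4 genes have 6 probes, since Abcf3 and Abca17 are averages of 2 each. Whether the probes read above background is not known from this table.

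**Figure D4:**
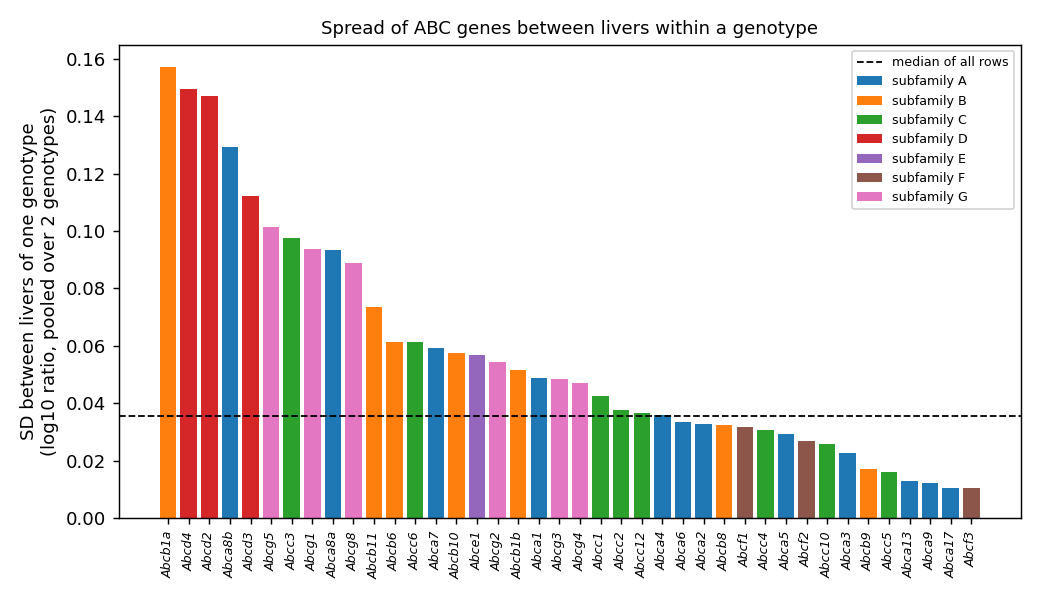
SD between livers of one genotype, pooled over both genotypes (log10 ratio), for each of the 40 ABC genes in falling order, coloured by subfamily. The dashed line is the median of all rows, 0.0357. The bars of the 3 genes of subfamily D are among the 5 highest and those of subfamily F are below the line.

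Against the pool, 0 of 40 members passed in the wild types and 0 in the knockouts (limma, adjusted over all rows), calls made for 0.0% and 0.0315% of all rows. At an unadjusted p under 0.05 there were 0 members in the wild types, against 2.32% of all rows. In the knockouts there were 4, Abcd3, Abcc6, Abcg2 and Abcb1a, against 17.7% of all rows. These tests leave out the spread of the pool, which is 1 sample, and both genotypes share it.

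Genes related to the family but named otherwise, and genes known to regulate or work with it, were counted as 1 list. Of the 35 listed, 32 were measured, 20 higher and 12 lower in the knockouts, and 0 passed in either direction (limma), with 3 at an unadjusted p under 0.05 (Scarb1, Nfe2l2 and Slc10a1), against 4.55% of all rows. Tap1 and Tap2, the peptide transporter of antigen presentation, differed by -0.0122 ± 0.0328 and 0.0490 ± 0.0401, and the chloride channel gene Cftr by 0.0235 ± 0.0514 (SE; limma, adjusted p = 0.946, 0.884 and 0.931). Among 13 measured regulators 7 were higher and 6 lower. Nfe2l2, the oxidative stress factor, differed by -0.0940 ± 0.0382 and Ahr, the dioxin receptor, by -0.140 ± 0.0713 (SE; limma, adjusted p = 0.884 for both).

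Among 16 measured partners 11 were higher and 5 lower. Scarb1, the HDL receptor, read 0.1112, 0.0470 and 0.1290 in the knockouts and -0.0387, -0.0059, -0.1130 and 0.0529 in the wild types, with a difference of 0.122 ± 0.0401 (SE). Slc10a1, which takes bile salts up from blood, differed by 0.122 ± 0.0516, and Cyp7a1, the rate-limiting enzyme of bile acid synthesis, by -0.335 ± 0.157 (SE). None of these passed (limma, adjusted p = 0.884 for all 3). Cyp7a1 read -0.1715, -0.0408 and -0.6347 in the knockouts, the last in liver 4, against -0.1521 to 0.2888 in the wild types, and the difference was -0.159 without knockout liver 4.

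Markers of the cell types that liver tissue could hold were read beside these results. Of 8 hepatocyte markers 7 were higher in the knockouts, with list means of 0.0268 to 0.113 there and -0.0461 to 0.0861 in the wild types. All 7 endothelial markers were higher (-0.0167 to 0.0485 against -0.0410 to 0.0178), as were 5 of 6 stellate cell markers (-0.0109 to 0.0403 against -0.0665 to 0.00085) and all 7 pancreas markers measured (0.0280 to 0.0361 against -0.0458 to 0.0600). Cholangiocyte, lymphocyte, erythroid and adipocyte markers were higher in 3 of 5, 4 of 5, 2 of 5 and 2 of 4. Over all rows 57.2% were higher. Across these lists 0 markers passed (limma), a call made for 0.0045% of all rows. At an unadjusted p under 0.05 (limma) lay Stab1, Vwf, Pck1, Marco, Col1a2 and Cd3e, all higher in the knockouts, and Hbb-b1, which was lower. By list they were 2 of 7 endothelial, 1 of 8 hepatocyte, 1 of 6 macrophage and 1 of 6 stellate cell markers. The lymphocyte and erythroid lists had 1 of 5 each, and the cholangiocyte, pancreas and adipocyte lists had 0. Over all rows 4.55% lay under that p. The part of the markers in the values of the ABC genes was not tested.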

How the data were processed

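The authors deposited 1 table of log ratios, read as log10, with a value for 23574 probes in each of 7 livers against the common pool and 0 values missing. Per the labels' protocols, RNA was amplified and labelled through aminoallyl chemistry, channel 1 carrying Cy3 and channel 2 Cy5, and the design text says that dyes were swapped. How both orientations were merged, the scanner software, the background correction and the normalization are not given in the sources used here. Column medians ran from -0.0008 to 0.0139, and whether the authors centred the columns is not stated. Labels describe the animals as separate mice, and the number of arrays limits the precision. Identical values made up at most 0.119% of probes in any pair of arrays, and the lowest correlation between arrays was -0.250.

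Probes were named through the platform annotation, updated by Entrez number (17724) or accession (21) against GRCm38.p6, while 79 kept the annotated symbol. In all 17824 had 1 symbol, 50 several and 5700 none. Averaged genes and the 5750 probes without a single symbol gave 22212 rows. Two-sided tests of the difference between genotypes used lmFit and eBayes with no trend (limma 3.58.1, R 4.3.3). P values were adjusted by Benjamini-Hochberg over these rows, and 0.05 was the threshold. The fit was tested on simulated normal noise with the spread of each row, independent between rows, and 50 rows changed at each size. It called 14% of changes of 0.1, 78% of 0.2 and 98% of 0.4. These shares need not hold for the deposited values. The members, gene lists and tests were chosen with earlier results of these data known. Values of every liver are given for 11 measured members picked by role, the 2 of smallest p in each subfamily and the 5 of largest difference, and for Abca8a, Abcb1b and Abcd4, which were chosen after their values were seen. Of related genes, the 5 of smallest p and Tap1, Tap2 and Cftr are named. Alternatives were 3 scalings, a filter on variation, single probes, robust variance, array weights, a replicate block and each liver left out. With single probes, a gene read by 2 was represented by the one of smaller p. The array weights were 0.4385, 3.22 and 0.8041 in knockout livers 2, 3 and 4, and 0.68 to 1.167 in the wild types. Knockout means under array weights thus rest mostly on knockout liver 3.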

Additional observations from a re-analysis of the deposited data

Results flagged for a closer look

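In 2 of the 40 ABC genes 1 wild-type liver stood far from the other wild types, measured by its gap to the nearest of them over the whole range, where chance gives about 1 in 20 groups. For Abcd2 wild-type liver 1 read 0.0966 and the others -0.0796 to -0.0632. For Abcf2 wild-type liver 2 read -0.0202 and the others 0.0164 to 0.0206.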

How the results depend on the processing

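The count of ABC genes past the threshold was 0 under all 15 alternatives, as it was against the pool under those run there (3 scalings and each liver left out), and the lowest adjusted p of a member was 0.689, without knockout liver 3. At an unadjusted p under 0.05 there were 0 members after quantile normalization and 1, Abcb1a, after scale normalization, with robust variance and with array weights. With 1 liver left out there were 0 to 2, not always Abcb1a and Abcd3, each of which was among them in 2 of 7 such fits. Abcd4 and Abcg1 were there without knockout liver 4, Abca7 without knockout liver 3, Abca8b without knockout liver 2, Abcg2 without wild-type liver 2 and Abcc1 without wild-type liver 3. Leaving out rows of low variation kept 24 members, 9 of them higher, with medians of -0.00847 over all, 0.0521 in A, -0.0394 in B and -0.0350 in C, and left no gene of F. That filter took the SD over all 7 livers of both genotypes, so it favours rows with a wide difference between them. Members higher numbered 22 to 25 with 1 liver left out, and the median of D ranged from -0.192 to 0.00758. Of 283 values of 19 named genes, 19 turned sign, none of them called. After quantile normalization Abca1 was 0.0175, Abcb10 0.00316 and Abcg1 0.00409, after scale normalization Abca1 was 0.0164 and Abcb10 0.00672, and with array weights Abca1 was 0.0149 and Abcf2 -0.00959. With 1 liver left out the ranges were -0.0360 to 0.0342 for Abca1, -0.0444 to 0.0262 for Abcb10, -0.121 to 0.0197 for Abcc3, -0.192 to 0.00758 for Abcd2, -0.0422 to 0.00553 for Abce1, -0.0125 to 0.0217 for Abcf2 and -0.102 to 0.0222 for Abcg1. The cause was not tested.

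Over all rows, deviations from the group means had r = -0.131, -0.207 and -0.150 between livers of the same title number (2, 3 and 4). Between livers of different numbers r ran from -0.294 to 0.323. Deviations of livers within a group depend on one another, so these values cannot settle whether the numbers pair the mice. With a replicate block 0 members were called and Abce1 turned to 0.00397. At an unadjusted p under 0.05 lay 2 members, Abcb1a and Abcd3, beside 2.35% of all rows. Abcb1a was -0.282 ± 0.109 and Abcd3 -0.165 ± 0.0326 (SE; limma, unadjusted p = 0.0474 and 0.00345). Neither passed after adjustment. Wild-type liver 1 has no knockout of its number, so the block takes it out of the difference. Without that liver and without the block, Abcd3 was likewise -0.165, with an SE of 0.0811. The SE of Abcd3 without the block over all 7 livers was 0.0710.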
